A study of Homo sapiens with 9 samples.

Results

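F-box proteins are the substrate-binding subunits of SCF ubiquitin ligases. The F-box, a short motif, binds the adaptor SKP1, which sits on the scaffold CUL1 together with the RING protein RBX1, and the rest of the F-box protein picks the substrate that is to be ubiquitylated. By that remaining part the family is sorted into FBXW proteins with WD40 repeats, FBXL proteins with leucine-rich repeats and FBXO proteins with other domains, and cyclin F, from which the F-box took its name, carries a cyclin box. SKP2 is itself an FBXL protein, and most of its relatives share the same SKP1 and CUL1.

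The genes described here are the F-box genes other than SKP2. They were taken by name, as protein-coding genes whose symbol is FBXO, FBXL or FBXW followed by a number, with BTRC (beta-TrCP1) and CCNF (cyclin F) added. The rule gave 65 of the 58395 genes in the files, namely 36 FBXO genes, 17 FBXL genes, 11 FBXW genes with BTRC counted among them, and CCNF. Of the 65, 56 passed the filter on low counts and were tested.

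RNA was sequenced from MDA-MB-231, an established line of human triple-negative breast cancer cells, after 96 h of siRNA treatment by reverse transfection. The groups were SKP2-2 and SKP2-1, in which cells received 1 of 2 individual siRNAs against SKP2, and NC, in which cells received a nontargeting control siRNA, with 3 libraries each. Cells of all groups were grown in the same medium. The design text of the series names the zinc transporter ZIP7 in place of SKP2, whereas its title and sample labels name SKP2, and SKP2 is the gene that was found lowered. SKP2 averaged 5.96 ± 0.236 CPM in SKP2-2, 3.58 ± 0.307 CPM in SKP2-1 and 62.1 ± 3.99 CPM in NC (SD, n = 3 each), where CPM is the count of a gene per 1 M gene counts after scaling between libraries. Its log2 fold change was -3.38 for SKP2-2 and -4.11 for SKP2-1 against NC.

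Each library held 35.5 to 49.9 M gene counts. The cell line markers VIM, CD44, EGFR, FN1, AXL and CAV1 summed to 7106 to 7389 CPM in SKP2-2, 6942 to 7139 CPM in SKP2-1 and 6619 to 6728 CPM in NC. Single markers moved in both directions under these sums. With SKP2-2, 3 passed the test as higher and 1 as lower than NC (against 25.2% and 24.1% of all genes). With SKP2-1, 3 passed as higher and 2 as lower (against 25.0% and 20.5%). AXL averaged 1311 CPM in SKP2-2, 630.4 CPM in SKP2-1 and 1398 CPM in NC, and FN1 469.8, 1253 and 718 CPM. Of the luminal markers, the estrogen and progesterone receptor genes ESR1 and PGR averaged 0.0396 to 0.233 CPM over the groups. ERBB2 averaged 84.1 to 94.5 CPM, and KRT8 and KRT18 243 to 413 CPM. GATA3, FOXA1, TFF1, EPCAM and CDH1 averaged 0.248 to 12.9 CPM. The 10 luminal markers summed to 686 to 855 CPM in SKP2-2, 694 to 712 CPM in SKP2-1 and 662 to 844 CPM in NC. The 6 immune markers summed to 3.35 to 3.75 CPM in SKP2-2, 3.62 to 3.79 CPM in SKP2-1 and 1.52 to 2.19 CPM in NC. The 6 endothelial markers summed to 7.94 to 9.5 CPM in SKP2-2, 15.7 to 17.4 CPM in SKP2-1 and 7.11 to 8.19 CPM in NC, with CLDN5 at 0 throughout. The part of these markers in the results was not tested.

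The libraries of SKP2-2 and of NC were spread out along the third principal component, and those of SKP2-1 were not. SKP2-2 replicates 1 to 3 lay at 21.7, 3.3 and -14.6 and SKP2-1 replicates 1 to 3 at -3.5, -3.4 and -1.1, while NC replicates 1 to 3 lay at -30.3, 6.8 and 21.2, with replicate 1 apart from the other two. Among the F-box genes this spread went with the GC content of the transcript. Over the 56 tested members, the correlation between GC percent and a library's log2 deviation from its group mean was -0.71, 0.06 and 0.65 in SKP2-2 replicates 1 to 3, -0.09, 0.03 and 0.07 in SKP2-1, and 0.73, -0.53 and -0.63 in NC, given as a description since the genes share each library. FBXW5, at 66.6% GC, had 55.6, 79.5 and 116 CPM in SKP2-2, against 47.3, 51.7 and 48.5 CPM in SKP2-1 and 86.5, 43 and 32.8 CPM in NC. The highest of its NC libraries was 2.64 times the lowest, and FBXL19, FBXL15, FBXL18 and FBXL8, at 61.7 to 69.4% GC, spread 2.01 to 2.22 times within a group. None of these 5 passed the test in any comparison. Without NC replicate 1, FBXW5 (log2 fold change 1.13), FBXL19 (0.90) and FBXL15 (0.84) passed as higher in SKP2-2 than in NC. Without SKP2-2 replicate 1, FBXL8 passed as higher in SKP2-2 than in SKP2-1 (0.82). Once GC content was corrected for, FBXL19 passed as higher than NC by 0.23 in SKP2-2 and 0.24 in SKP2-1. FBXL18 then passed as lower in SKP2-2 than in NC (-0.61, adjusted p = 0.00119) and than in SKP2-1 (-0.43, adjusted p = 0.0092).

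**Figure D1:**
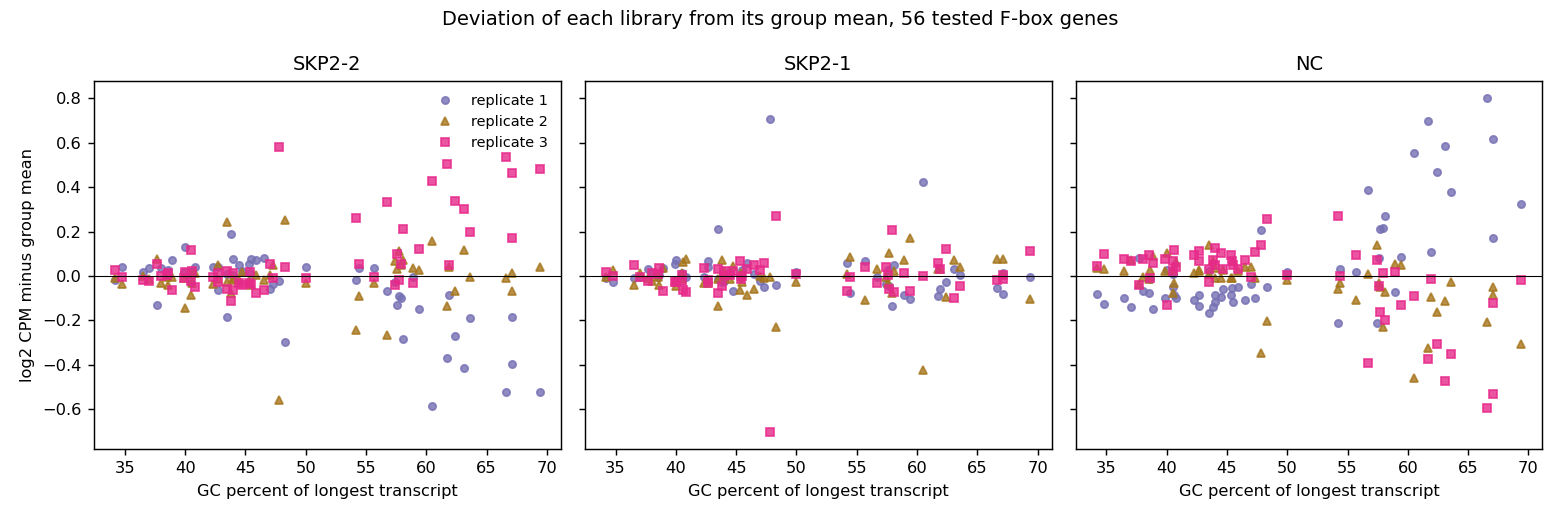
Each point is 1 of the 56 tested F-box genes in 1 library, with the GC percent of its longest transcript on the x axis and the log2 of its CPM minus the mean of its group on the y axis, in panels for SKP2-2, SKP2-1 and NC. High-GC members lie high in NC replicate 1 (r = 0.73) and SKP2-2 replicate 3 (r = 0.65) and low in SKP2-2 replicate 1 (r = -0.71) and NC replicate 3 (r = -0.63), while the SKP2-1 libraries show no such slope.

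The family spanned a wide range of transcript levels. To set genes beside each other, levels were divided by exon length, in CPM per kb. In NC, the tested members ran from 0.0844 CPM per kb for FBXW10 to 23.2 CPM per kb for FBXW11 (beta-TrCP2). FBXW11, FBXO28 and FBXL5 held the top 3 places in NC, at 23.2 ± 1.63, 22.1 ± 1.33 and 18 ± 0.547 CPM per kb (SD, n = 3 each), and the NC libraries of FBXW11 and FBXO28 overlapped. FBXW5 followed at 16.6 ± 8.77 CPM per kb, with a spread over its NC libraries that takes in all of these places. CCNF held place 5 in NC at 14.4 ± 0.692 CPM per kb. It stood at place 16 in SKP2-2, with 7.07 ± 0.565 CPM per kb, and at place 26 in SKP2-1, with 5.05 ± 0.106 CPM per kb. FBXO7 held place 36 in SKP2-2 with 3.17 ± 0.0781 CPM per kb, against place 16 in SKP2-1 and place 14 in NC with 7.68 ± 0.202 and 8.13 ± 0.136 CPM per kb. Summed over all 65 genes, transcripts of the family amounted to 1965 ± 53.2 CPM in SKP2-2, 2006 ± 11.1 CPM in SKP2-1 and 1932 ± 16.1 CPM in NC (SD, n = 3 each).

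The 9 members under the filter were FBXL7, FBXL16, FBXL22, FBXO15, FBXO24, FBXO39, FBXO40, FBXO47 and FBXW12. FBXO40, a muscle gene, and FBXO47 had 0 counts in all 9 libraries, and the highest count of any of the 9 was 13, for FBXO24. No change can be read for them at this depth.

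**Figure D2:**
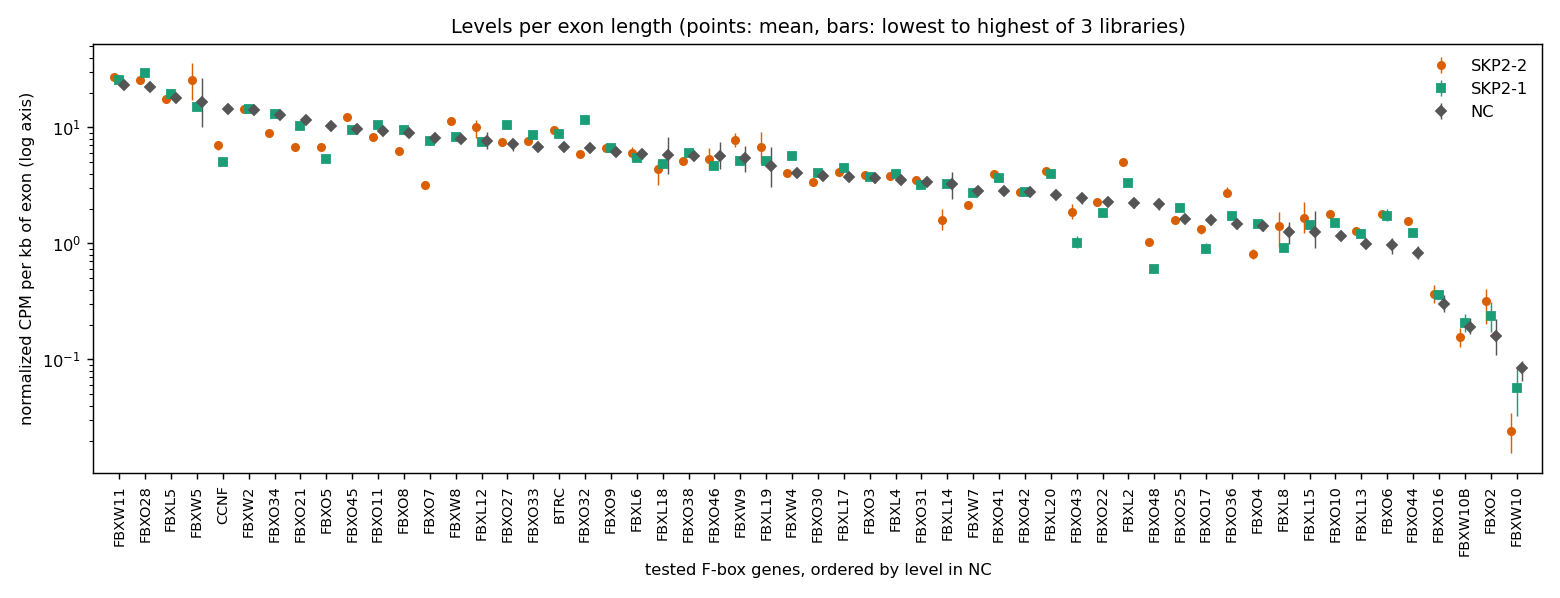
Mean level of each tested F-box gene reported by name, in CPM per kb of exon on a log axis, with bars over the range of the 3 libraries, for SKP2-2, SKP2-1 and NC; genes are ordered by their level in NC. CCNF (place 5 in NC) and FBXO5 lie lower in both siRNA groups than in NC, and FBXO7 does so in SKP2-2.

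The comparison of each siRNA group with NC asks how the remaining F-box genes behave when SKP2 is lowered. With SKP2-2, 18 of the 56 tested members rose (32.1%, against 25.2% of all 16575 genes tested) and 16 fell (28.6%, against 24.1%). With SKP2-1, 19 rose (33.9%, against 25.0% of all genes) and 8 fell (14.3%, against 20.5%). Between the siRNAs, 15 members were higher in SKP2-2 than in SKP2-1 (26.8%, against 25.2% of all genes) and 17 were lower (30.4%, against 25.3%). The median log2 fold change of the members was 0.05 for SKP2-2 and 0.08 for SKP2-1 against NC, and that of all genes tested 0.03 and 0.02. Members past the test with at least a 2-fold change numbered 7 for SKP2-2 (12.5%, against 6.86% of all genes) and 3 for SKP2-1 (5.36%, against 5.91%) relative to NC, and 2 between the siRNAs (against 6.96% of all genes). The NC libraries serve as controls for both siRNA groups, so the changes of SKP2-2 and SKP2-1 are set side by side below and are not independent.

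The classes are small, and their counts are given beside the shares of all genes tested. Those shares were 25.2% higher and 24.1% lower with SKP2-2, and 25.0% and 20.5% with SKP2-1. By class, 9 of 31 FBXO genes rose and 12 fell with SKP2-2 (29% and 38.7%), and 10 rose and 6 fell with SKP2-1 (32.3% and 19.4%). Of 14 FBXL genes, 5 rose and 1 fell with SKP2-2 (35.7% and 7.14%), and 6 rose and 1 fell with SKP2-1 (42.9% and 7.14%). Of 10 FBXW genes, 4 rose and 2 fell with SKP2-2 (40% and 20%), and 3 rose and 0 fell with SKP2-1 (30% and 0%). When NC replicate 1 and SKP2-2 replicate 3 were both left out, the counts of higher and lower members were 21 and 16 for SKP2-2 against NC, 18 and 8 for SKP2-1 against NC, and 19 and 18 between the siRNAs.

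**Figure D3:**
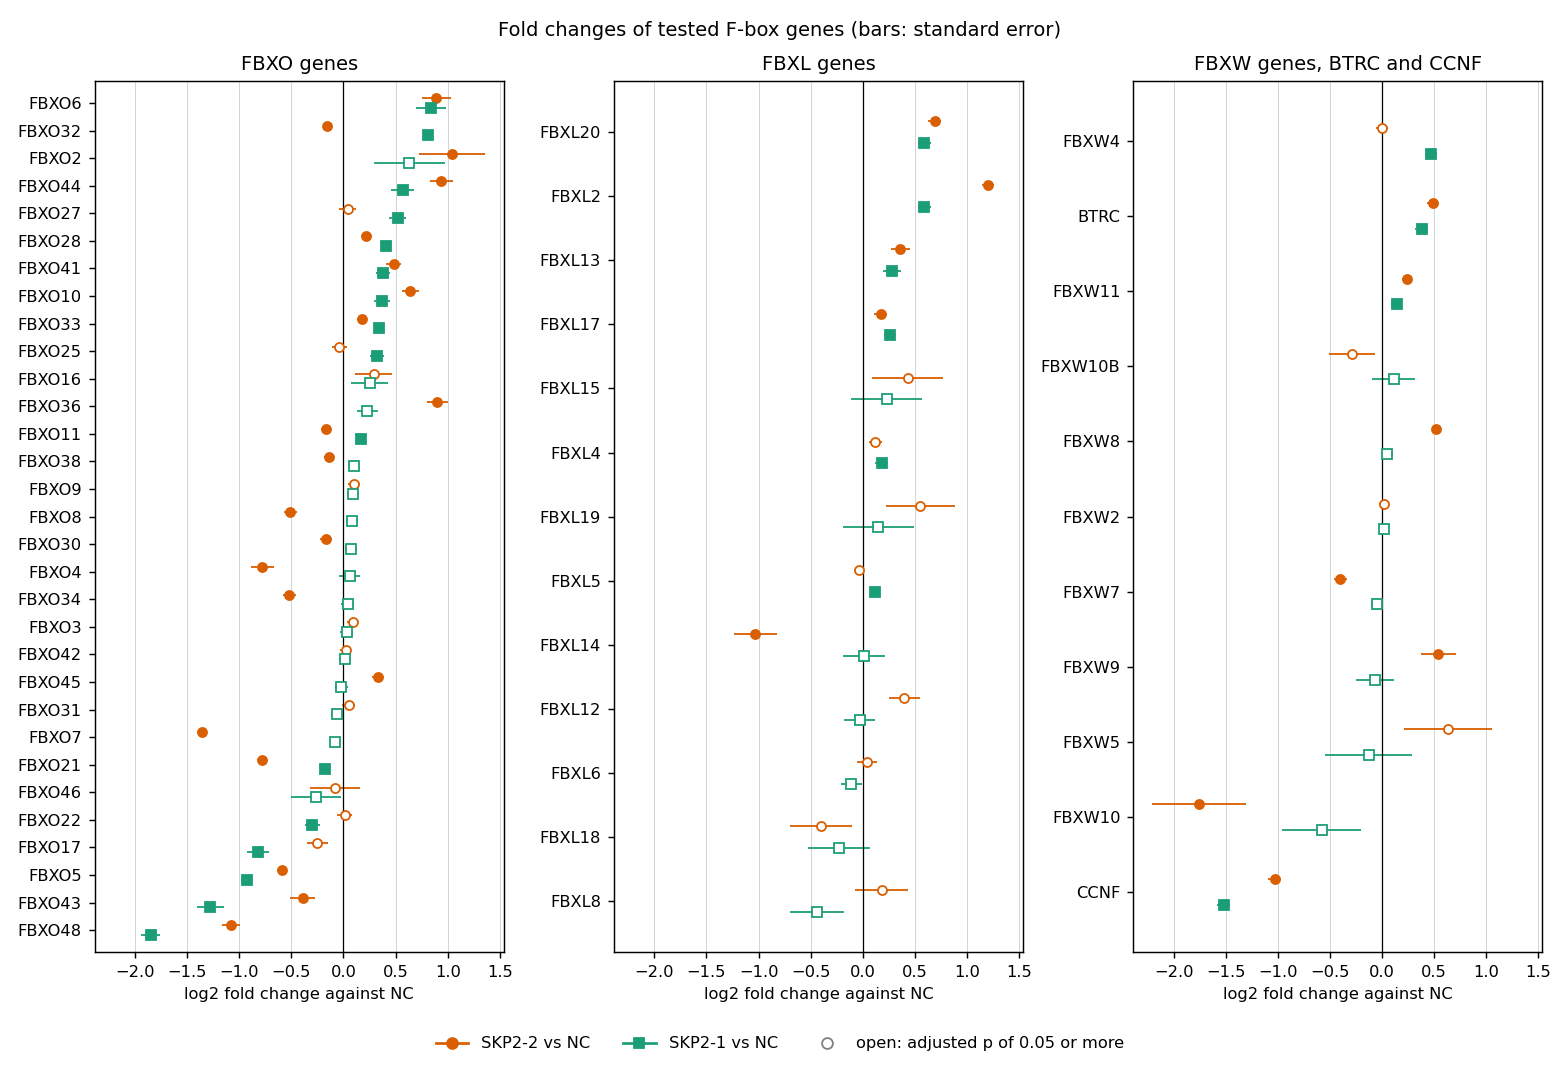
Log2 fold change against NC of each tested F-box gene reported by name (x axis, bars are standard errors), with SKP2-2 as circles and SKP2-1 as squares, filled where the adjusted p was under 0.05. CCNF, FBXO5, FBXO43 and FBXO48 lie left of 0 with both siRNAs, FBXL2, FBXL20, FBXO6 and FBXO44 lie right of 0 with both, and FBXO7, FBXL14 and FBXO4 lie left of 0 with filled points for SKP2-2 only.

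Among the F-box genes of the cell cycle, CCNF, FBXO5 and FBXO43 fell with both siRNAs. CCNF encodes cyclin F, an F-box protein that builds up towards mitosis and targets the ribonucleotide reductase subunit RRM2 and the replication factor CDC6. CCNF (ENSG00000162063, chromosome 16, 2429394 to 2458854 of GRCh38) had 40.7, 45.4 and 47.7 CPM in SKP2-2, 32.5, 31.2 and 31.9 CPM in SKP2-1, and 96.1, 88.9 and 88.2 CPM in NC. All 6 siRNA libraries lay below all NC libraries, and those of SKP2-2 lay above those of SKP2-1. Against NC, the level was 2.04 times lower in SKP2-2 (log2 fold change -1.03 with SE 0.06, adjusted p = 1.74e-08) and in SKP2-1 2.86 times lower (-1.52 with SE 0.06, adjusted p = 7.83e-10). It was 1.4-fold higher in SKP2-2 than in SKP2-1 (adjusted p = 2.14e-05). In bulk RNA, fewer cells in the phases that express such a gene and less of its RNA per cell cannot be told apart.

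FBXO5 encodes EMI1, the inhibitor that holds the anaphase-promoting complex off its substrates through S phase. FBXO5 (ENSG00000112029, chromosome 6, 152970519 to 152983579) had 25.7, 25.8 and 26.5 CPM in SKP2-2, 20.5, 20.6 and 20.9 CPM in SKP2-1, and 37.1, 40.3 and 40.4 CPM in NC. The 3 groups did not overlap. Against NC it was lower by 1.51 times in SKP2-2 (log2 fold change -0.59 with SE 0.05, adjusted p = 8.87e-07) and by 1.9 times in SKP2-1 (-0.93 with SE 0.05, adjusted p = 1.64e-08). Its paralogue FBXO43, or EMI2, is known for arresting the egg in meiosis. FBXO43 had 6.44, 8.66 and 7.01 CPM in SKP2-2, 4.6, 3.62 and 3.77 CPM in SKP2-1, and 8.57, 10.6 and 9.82 CPM in NC. SKP2-1 lay below both other groups, with a log2 fold change of -1.28 against NC (SE 0.13, adjusted p = 3.43e-06), while the SKP2-2 and NC libraries overlapped. The fall of FBXO43 with SKP2-2 (log2 fold change -0.39, adjusted p = 0.0183) did not pass without NC replicate 2 (-0.32), NC replicate 3 (-0.38), SKP2-2 replicate 1 (-0.35) or SKP2-2 replicate 3 (-0.36).

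Of the 14 cell cycle genes set beside them as a reference, 0 rose and 13 fell with SKP2-2 (92.9%, median log2 fold change -0.90). With SKP2-1, 0 rose and 14 fell (100%, median -1.29). Of all genes tested, 25.2% rose and 24.1% fell with SKP2-2 (median 0.03), and 25.0% and 20.5% with SKP2-1 (median 0.02). The reference list was chosen with earlier results of these data known. PLK1, a mitotic kinase, changed by -1.18 with SKP2-2 and -1.64 with SKP2-1, and CDC20, an activator of the anaphase-promoting complex, by -1.10 and -1.52 with the same siRNAs. All 14 reference genes were higher in SKP2-2 than in SKP2-1, against 25.2% of all genes. Their median difference was 0.46 on the log2 scale, and the corresponding differences were 0.49 for CCNF, 0.33 for FBXO5 and 0.88 for FBXO43. How far a change in cycling cells bears on CCNF, FBXO5 and FBXO43 was not tested.

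The promoters of CCNF and FBXO5 are shown because both genes fell with both siRNAs and both windows hold the motifs of late cell cycle promoters, the CCAAT box bound by NF-Y and TTTGAA, the core of the cell cycle genes homology region. FBXO48, which fell most of all members with SKP2-1, is shown beside them. Each run is 300 bases of RefSeq sequence (GRCh38.p14), from 250 bases before to 50 bases after the annotated start, 5′ to 3′ on the strand of the gene, with capitals on CCAAT and TTTGAA in either orientation.
CCNF, chr16:2429197-2429496, plus strand: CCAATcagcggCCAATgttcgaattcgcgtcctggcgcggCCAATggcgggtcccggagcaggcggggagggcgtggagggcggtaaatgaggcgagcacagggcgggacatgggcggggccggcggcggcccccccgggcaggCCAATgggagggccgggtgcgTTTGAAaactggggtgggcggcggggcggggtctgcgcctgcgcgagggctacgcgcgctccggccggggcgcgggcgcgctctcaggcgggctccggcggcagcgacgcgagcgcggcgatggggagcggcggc
FBXO5, chr6:152982992-152983291, minus strand: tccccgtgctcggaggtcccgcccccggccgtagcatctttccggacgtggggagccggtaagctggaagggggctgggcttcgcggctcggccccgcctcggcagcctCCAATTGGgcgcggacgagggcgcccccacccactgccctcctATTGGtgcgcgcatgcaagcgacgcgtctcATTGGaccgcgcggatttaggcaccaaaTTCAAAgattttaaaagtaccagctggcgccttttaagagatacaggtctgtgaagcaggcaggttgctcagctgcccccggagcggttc
FBXO48, chr2:68467245-68467544, minus strand: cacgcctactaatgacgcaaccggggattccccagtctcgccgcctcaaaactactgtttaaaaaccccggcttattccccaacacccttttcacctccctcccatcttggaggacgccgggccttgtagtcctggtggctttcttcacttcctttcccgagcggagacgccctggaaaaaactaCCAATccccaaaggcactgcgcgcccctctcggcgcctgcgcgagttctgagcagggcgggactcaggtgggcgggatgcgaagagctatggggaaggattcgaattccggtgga

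The CCNF window held 4 CCAAT and 1 TTTGAA. The FBXO5 window held 4 CCAAT, of which 2 overlap on opposite strands, and 1 TTTGAA, while the other annotated FBXO5 window held neither. The FBXO48 window held 1 CCAAT and 0 TTTGAA. RefSeq windows were at hand for 50 of the 65 members (70 windows), and FBXO43 had none. Both motifs, searched on both strands, occurred together in 4 of the 70 windows, against 5.9% of the 35116 windows of all genes. Those 4 were windows of CCNF, FBXO5, FBXL14 and FBXW7. CCAAT occurred in 21 of the 70 windows, against 34.6% of all windows, and TTTGAA in 7, against 15.2%. The E2F motif GGCGGGAA was in 2 of the 70, against 3.16% of all windows, and not in those printed. These matches describe the letters of the windows and are not binding sites measured here.

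**Figure D4:**
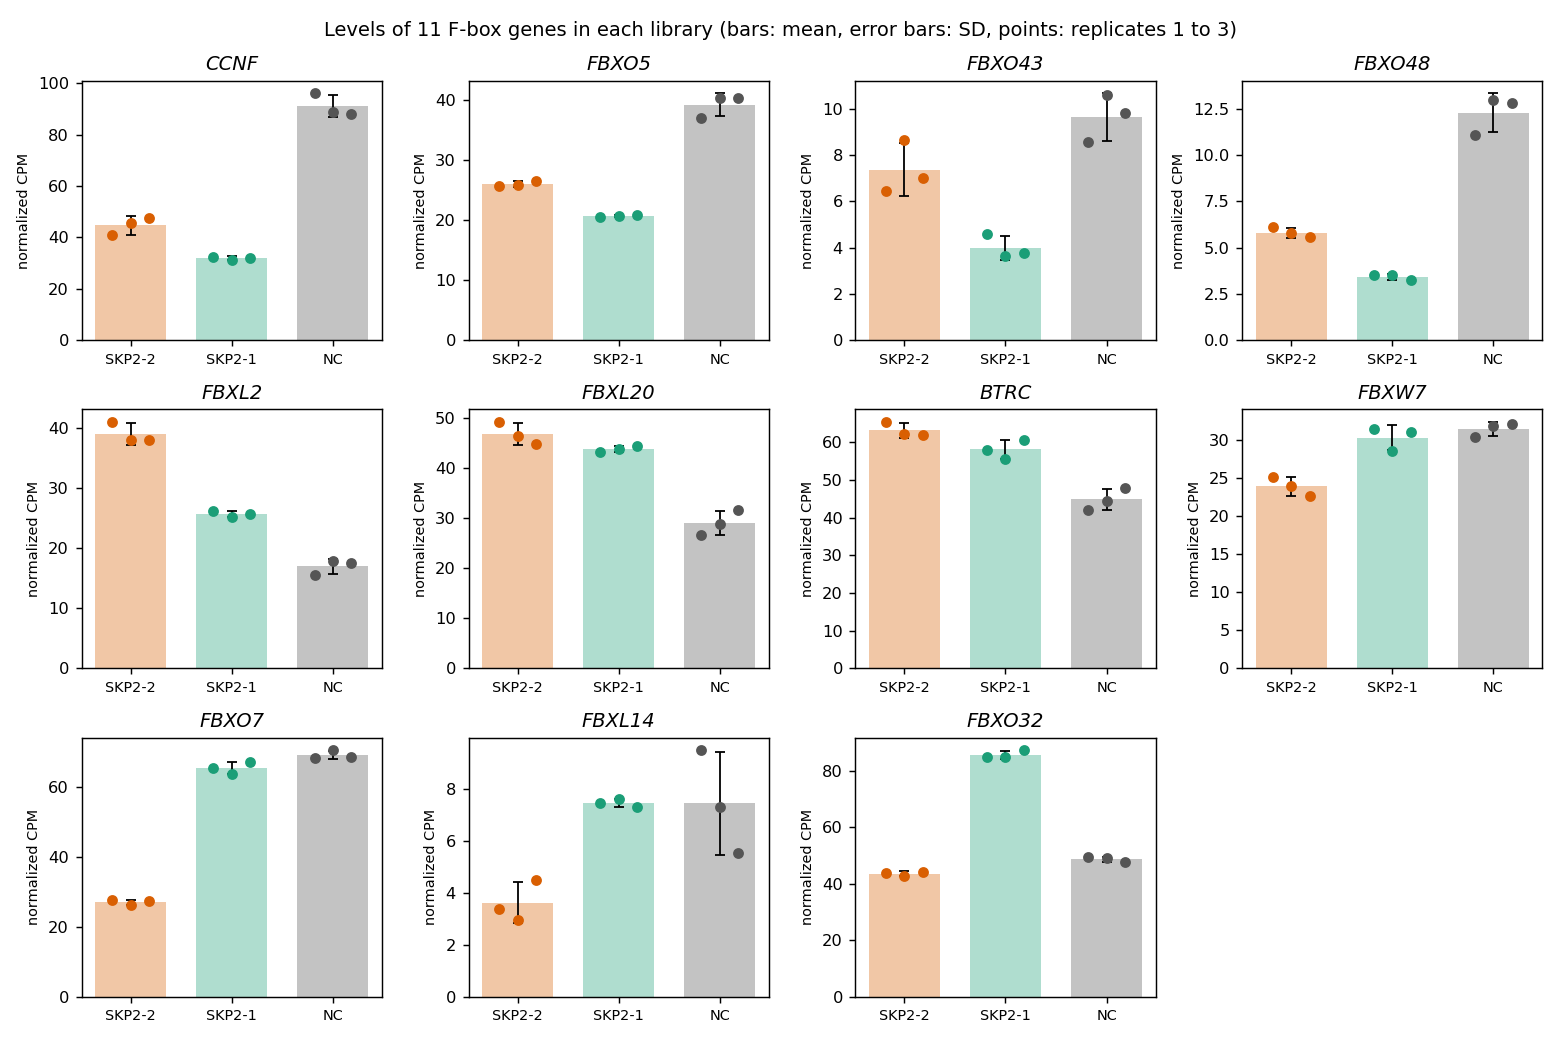
Levels of 11 F-box genes in CPM per library (points, replicates 1 to 3 from left to right), with the group mean as a bar and the SD as the error bar, for SKP2-2, SKP2-1 and NC. CCNF, FBXO5 and FBXO48 are lowest in SKP2-1 and highest in NC, FBXL2 runs the other way with SKP2-2 highest, FBXO7 is low in SKP2-2 only, and FBXO32 is high in SKP2-1 only.

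The beta-TrCP genes rose modestly. BTRC and FBXW11 encode beta-TrCP1 and beta-TrCP2, which bind phosphorylated beta-catenin, IkB-alpha, WEE1 and CDC25A. BTRC (chromosome 10, 101354033 to 101557321) had 65.4, 62.1 and 61.8 CPM in SKP2-2, 57.9, 55.6 and 60.7 CPM in SKP2-1, and 42.1, 44.5 and 47.8 CPM in NC. All 6 siRNA libraries lay above NC, 1.41-fold higher on average in SKP2-2 (log2 fold change 0.49, SE 0.06, adjusted p = 8.76e-06) and 1.3-fold higher in SKP2-1 (0.38, SE 0.06, adjusted p = 1.17e-04). FBXW11 had 158, 151 and 149 CPM in SKP2-2, 144, 142 and 144 CPM in SKP2-1, and 121, 129 and 139 CPM in NC. It rose with SKP2-2 (log2 fold change 0.24, adjusted p = 0.00176). Its smaller change with SKP2-1 (0.14, adjusted p = 0.0339) missed the threshold in 11 of 18 alternatives. Among them were fits without NC replicate 1 (0.08), NC replicate 2, SKP2-1 replicate 1, SKP2-1 replicate 3 or SKP2-2 replicate 2 (0.14 each), or SKP2-1 replicate 2 (0.15), and the adjusted p with 1 library left out ran from 0.0023 to 0.131.

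Of the remaining cell cycle members, FBXW7, FBXO4 and FBXW8 differed between the siRNAs. FBXW7, a tumour suppressor that targets cyclin E, MYC, JUN and NOTCH proteins, had 25.1, 23.9 and 22.7 CPM in SKP2-2, 31.5, 28.5 and 31 CPM in SKP2-1, and 30.4, 31.9 and 32.1 CPM in NC. It fell with SKP2-2 (log2 fold change -0.40, SE 0.06, adjusted p = 1.06e-04), its change with SKP2-1 was -0.05 (adjusted p = 0.496), and the siRNAs differed (-0.34, adjusted p = 3.58e-04). FBXO4, which has been reported to target cyclin D1, had 2.69, 2.22 and 2.49 CPM in SKP2-2, 4.62, 4.26 and 4.32 CPM in SKP2-1, and 4.3, 4.53 and 3.85 CPM in NC. SKP2-2 lay below both other groups, 1.71 times lower than NC (log2 fold change -0.78, adjusted p = 5.30e-05) and 1.79 times lower than SKP2-1 (adjusted p = 2.69e-05). FBXW8, which works with the scaffold CUL7 in place of CUL1, had 60.7, 57.6 and 58.6 CPM in SKP2-2, 43.1, 41.7 and 42.8 CPM in SKP2-1, and 41.5, 40.5 and 41.2 CPM in NC, a rise of 1.44-fold with SKP2-2 (adjusted p = 6.24e-07). FBXO31, another reported cyclin D1 receptor, did not pass, with changes of 0.05 for SKP2-2 and -0.06 for SKP2-1. In all, of the 9 members grouped as cell cycle genes, 3 rose and 5 fell with SKP2-2 (33.3% and 55.6%, against 25.2% and 24.1% of all genes), and 2 rose and 3 fell with SKP2-1 (22.2% and 33.3%, against 25.0% and 20.5%).

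The sugar-binding subfamily comprises 5 FBXO genes that share an F-box-associated domain, and FBXO2 and FBXO6 are known to bind N-glycans of misfolded glycoproteins in degradation from the endoplasmic reticulum. Of the 5, 3 rose and 0 fell with SKP2-2 (60% and 0%, against 25.2% and 24.1% of all genes), and 3 rose and 1 fell with SKP2-1 (60% and 20%, against 25.0% and 20.5%), with median log2 fold changes of 0.89 for SKP2-2 and 0.57 for SKP2-1. FBXO2, FBXO44 and FBXO6 lie side by side on chromosome 1 between 11637018 and 11674354. FBXO6 had 3.01, 3.33 and 3.34 CPM in SKP2-2, 2.83, 2.95 and 3.59 CPM in SKP2-1, and 2.02, 1.48 and 1.76 CPM in NC, so all siRNA libraries lay above NC. It rose 1.85-fold with SKP2-2 (log2 fold change 0.89, SE 0.14, adjusted p = 1.54e-04) and 1.8-fold with SKP2-1 (0.84, SE 0.14, adjusted p = 2.73e-04). FBXO44 had 5.2, 5.99 and 5.46 CPM in SKP2-2, 4.17, 4.61 and 4.13 CPM in SKP2-1, and 3.34, 2.79 and 2.58 CPM in NC, without overlap between groups. It rose 1.92-fold with SKP2-2 (log2 fold change 0.94, adjusted p = 1.25e-05) and 1.49-fold with SKP2-1 (0.57, adjusted p = 0.00103). The difference between the siRNAs (0.37, adjusted p = 0.0123) was lost without SKP2-1 replicate 3 (0.34) or SKP2-2 replicate 2 (0.31).

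FBXO2 was scarce, at 0.69, 1.16 and 1.39 CPM in SKP2-2, 1.06, 0.59 and 0.791 CPM in SKP2-1, and 0.759, 0.376 and 0.487 CPM in NC, and the groups overlapped. Its rise with SKP2-2 (log2 fold change 1.04, SE 0.32, adjusted p = 0.0168) did not pass without NC replicate 2 (0.83), NC replicate 3 (0.98), SKP2-2 replicate 2 (0.99) or SKP2-2 replicate 3 (0.81). With SKP2-1 its value was 0.63 (adjusted p = 0.15), which passed without NC replicate 1 (0.90). FBXO2 and FBXO44 share 267 bases of exon on opposite strands, and the strand setting of the counting is not given in the sources used here, so reads of that stretch cannot be assigned with certainty.

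FBXO17 and FBXO27 lie 14.8 kb apart on chromosome 19, and they moved in opposite directions with SKP2-1. FBXO17 had 5.94, 6.71 and 7.18 CPM in SKP2-2, 4.13, 5 and 4.24 CPM in SKP2-1, and 8.35, 8.13 and 7.17 CPM in NC. It fell 1.77 times with SKP2-1 (log2 fold change -0.82, SE 0.11, adjusted p = 2.83e-05). The change with SKP2-2 was -0.25 (adjusted p = 0.0592), and it passed in 5 of 18 alternatives. Among them were fits without NC replicate 3 or without SKP2-2 replicate 3 (-0.32 each). The others were RLE scaling (-0.28), a filter of 1 CPM in 3 libraries (-0.29) and GC content corrected for (-0.41, adjusted p = 7.03e-04). FBXO27 had 20.7, 22.2 and 20.6 CPM in SKP2-2, 28.7, 29.4 and 30.3 CPM in SKP2-1, and 17.7, 22.5 and 21.5 CPM in NC. It rose 1.43-fold with SKP2-1 (log2 fold change 0.52, adjusted p = 1.50e-04), while the SKP2-2 libraries lay within the range of NC.

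**Figure D5:**
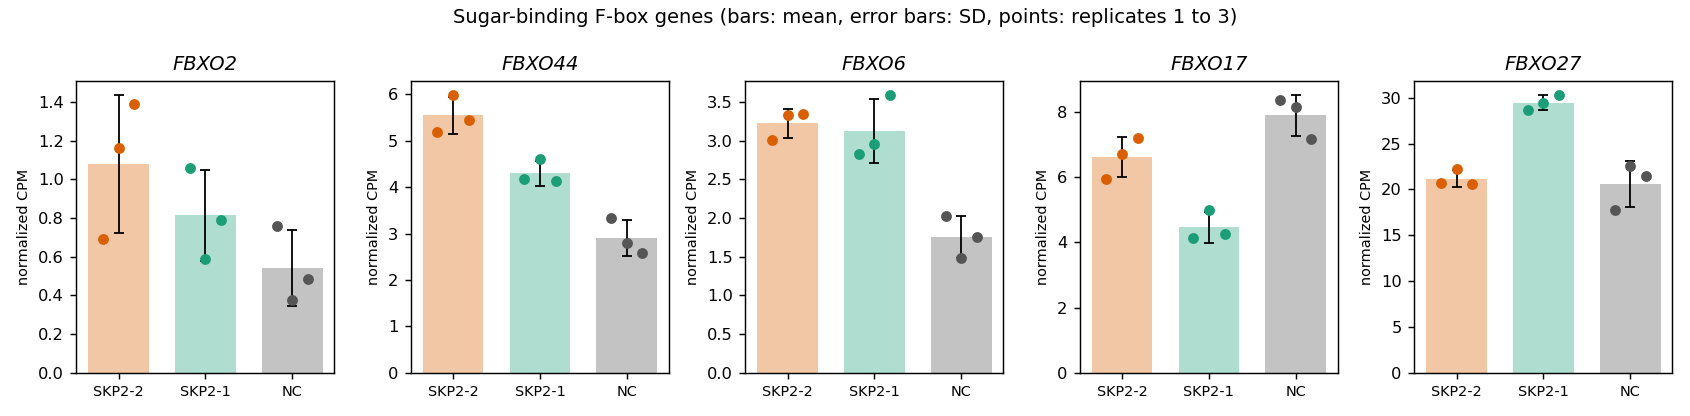
Levels of the 5 FBXO genes of the sugar-binding subfamily in CPM per library (points, replicates 1 to 3 from left to right), with the group mean as a bar and the SD as the error bar, for SKP2-2, SKP2-1 and NC. FBXO44 and FBXO6 are higher in all siRNA libraries than in NC, FBXO17 is lowest and FBXO27 highest in SKP2-1, and the FBXO2 groups overlap.

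Among members that changed with both siRNAs, FBXO48 had the largest fall with each, and FBXL2 the largest rise with SKP2-2. FBXO48 (ENSG00000204923, chromosome 2, 68459419 to 68467258), a small F-box gene, had 6.09, 5.78 and 5.55 CPM in SKP2-2, 3.49, 3.49 and 3.24 CPM in SKP2-1, and 11.1, 13 and 12.8 CPM in NC. Against NC it was 2.12 times lower in SKP2-2 (log2 fold change -1.08 with SE 0.09, adjusted p = 2.82e-07), and in SKP2-1 3.61 times lower (-1.85 with SE 0.09, adjusted p = 3.44e-09), with no overlap between the groups. The DNA repair gene APLF starts 303 bases away on the other strand, and its log2 fold change was -0.26 (adjusted p = 0.0141) for SKP2-2 and -0.18 (adjusted p = 0.0808) for SKP2-1. FBXL2 (chromosome 3, 33277025 to 33403662) encodes a prenylated F-box protein of membranes. FBXL2 had 41, 37.9 and 38 CPM in SKP2-2, 26.1, 25.1 and 25.6 CPM in SKP2-1, and 15.6, 17.8 and 17.5 CPM in NC. It was 2.29-fold higher in SKP2-2 (log2 fold change 1.20, SE 0.06, adjusted p = 6.43e-09) and 1.5-fold higher in SKP2-1 (0.59, SE 0.06, adjusted p = 5.48e-06), and the siRNAs differed by 0.61 (adjusted p = 2.90e-06).

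FBXL20, the closest relative of FBXL2 and known at the synapse as scrapper, rose as well. It had 49.2, 46.4 and 44.8 CPM in SKP2-2, 43.1, 43.7 and 44.4 CPM in SKP2-1, and 26.7, 28.8 and 31.6 CPM in NC. All siRNA libraries lay above NC, with rises of 1.61-fold (log2 fold change 0.69, adjusted p = 1.20e-06) for SKP2-2 and 1.5-fold (0.59, adjusted p = 5.84e-06) for SKP2-1.

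Smaller rises with both siRNAs were seen for genes of diverse roles. FBXO41, known from the centrosome of neurons, averaged 31.5 ± 1.61 CPM in SKP2-2, 29.3 ± 1.06 CPM in SKP2-1 and 22.6 ± 1.6 CPM in NC (SD, n = 3 each), with log2 fold changes of 0.48 for SKP2-2 (adjusted p = 3.87e-05) and 0.38 for SKP2-1 (adjusted p = 3.35e-04). With SKP2-2 it did not pass once GC content was corrected for (0.26, adjusted p = 0.0508). FBXO10, reported to target BCL2, averaged 10.7 ± 0.251 CPM in SKP2-2, 8.93 ± 0.571 CPM in SKP2-1 and 6.91 ± 0.491 CPM in NC, with changes of 0.64 for SKP2-2 (adjusted p = 2.14e-05) and 0.37 for SKP2-1 (adjusted p = 0.00202). The annotated gene AL513165.2, which shares 48% of the FBXO10 exon bases on the same strand, had 0 counts. Reads in several genes were set apart in the counting, so reads of the shared bases may be missing for both. The siRNA difference of FBXO10 (0.26, adjusted p = 0.0138) did not pass without SKP2-1 replicate 2 (0.21). FBXO28, among the most abundant members, was 1.17-fold higher in SKP2-2 (adjusted p = 0.00136) and 1.33-fold higher in SKP2-1 (adjusted p = 9.38e-06) than in NC. FBXL13 changed by 0.36 (adjusted p = 0.00432) with SKP2-2 and 0.28 (adjusted p = 0.0229) with SKP2-1. The SKP2-1 value of FBXL13 did not pass without NC replicate 1 (0.22), SKP2-1 replicate 1 (0.28) or SKP2-1 replicate 2 (0.24).

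FBXO7 was among the members that passed with SKP2-2 and not with SKP2-1. This gene, also named PARK15 for its role in parkinsonism, takes part in mitophagy and also assists cyclin D complexes. FBXO7 (ENSG00000100225, chromosome 22, 32474676 to 32498829) had 27.6, 26.3 and 27.3 CPM in SKP2-2, 65.6, 63.7 and 67.2 CPM in SKP2-1, and 68.5, 70.6 and 68.7 CPM in NC. SKP2-2 was below NC by 2.56 times (log2 fold change -1.36 with SE 0.05, adjusted p = 1.60e-10) and below SKP2-1 by 2.42 times (-1.28, SE 0.05, adjusted p = 1.80e-10). Its change with SKP2-1 was -0.08 (adjusted p = 0.162), which passed without SKP2-2 replicate 1 (-0.12).

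FBXL14, which targets the transcription factor SNAI1, fell as well with SKP2-2. It had 3.4, 2.97 and 4.5 CPM in SKP2-2, 7.45, 7.64 and 7.32 CPM in SKP2-1, and 9.5, 7.32 and 5.54 CPM in NC. Its log2 fold change was -1.03 against NC (SE 0.21, adjusted p = 0.00291) and -1.04 against SKP2-1 (SE 0.21, adjusted p = 0.00269), and that of SKP2-1 against NC was 0.01. FBXO36 rose with SKP2-2, with 12.2, 10.1 and 9.88 CPM, against 6.65, 7.13 and 6.57 CPM in SKP2-1 and 5.2, 6.01 and 6.03 CPM in NC (log2 fold change against NC 0.90, SE 0.10, adjusted p = 5.92e-06). FBXO21, FBXO34 and FBXO8 were 1.72, 1.43 and 1.42 times lower in SKP2-2 than in NC (log2 fold changes -0.78, -0.52 and -0.51), and FBXO45, a partner of the ligase MYCBP2, was higher (0.33, adjusted p = 5.30e-04). FBXO21 alone of these 4 passed with SKP2-1 too (-0.18, adjusted p = 0.00451).

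FBXW10 had the largest log2 fold change with SKP2-2 (-1.76, SE 0.45, adjusted p = 0.0052), on few reads: 4, 3 and 7 counts in SKP2-2, 16, 9 and 7 counts in SKP2-1, and 15, 13 and 19 counts in NC. Its paralogue FBXW10B passed in no comparison, and reads of such relatives may be split between them.

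FBXW4, FBXO25 and FBXO22 passed with SKP2-1 and not with SKP2-2. FBXW4 had 26.8, 30 and 28.2 CPM in SKP2-1, against 20.9, 19.9 and 20.4 CPM in NC, a 1.39-fold rise (log2 fold change 0.47, adjusted p = 3.95e-05). In SKP2-2 it had 20.9, 19.2 and 21.1 CPM, and it was lower in SKP2-2 than in SKP2-1 (-0.47, adjusted p = 3.37e-05). FBXW4 lies 53.3 kb from BTRC on chromosome 10. FBXO25 rose with SKP2-1 (log2 fold change 0.32, adjusted p = 0.00152), and FBXO22, which targets the demethylase KDM4A, fell 1.23 times (log2 fold change -0.30, adjusted p = 0.00208). Both differed between the siRNAs, by -0.36 for FBXO25 (adjusted p = 5.15e-04) and 0.31 for FBXO22 (adjusted p = 0.00147).

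The iron sensor FBXL5, which controls the iron regulatory protein IREB2, averaged 80 ± 1.18 CPM in SKP2-2, 89.4 ± 0.889 CPM in SKP2-1 and 82.4 ± 2.5 CPM in NC (SD, n = 3 each). The change with SKP2-1 was 0.12 (adjusted p = 0.0323), and it missed the threshold in 13 of 18 alternatives. These included fits without NC replicate 1 or SKP2-2 replicate 1 (0.08 each), SKP2-1 replicate 1 (0.11), SKP2-1 replicate 3 or SKP2-2 replicate 2 (0.12 each), and NC replicate 2 or SKP2-1 replicate 2 (0.13 each). FBXL5 was lower in SKP2-2 than in SKP2-1 (-0.16, adjusted p = 0.00553). The mitochondrial FBXL4, in which mutations cause a mitochondrial DNA depletion disease, changed by 0.18 with SKP2-1 (adjusted p = 0.0188), and that call was lost without NC replicate 1 (0.12) or SKP2-1 replicate 3 (0.16). With SKP2-2 its value was 0.12 (adjusted p = 0.104), which passed without NC replicate 3 (0.16). The SKP2-2 value also passed with scaling by library size only (0.16) and with GC content corrected for (0.22, adjusted p = 4.97e-04).

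FBXO32 and FBXO11 passed the test with both siRNAs in opposite directions. FBXO32 encodes atrogin-1, the ligase subunit of muscle wasting and a target of FOXO factors. FBXO32 (ENSG00000156804, chromosome 8, 123497889 to 123541206) had 43.8, 42.8 and 44.3 CPM in SKP2-2, 84.8, 84.8 and 87.3 CPM in SKP2-1, and 49.4, 49 and 47.8 CPM in NC. SKP2-1 lay 1.76-fold above NC (log2 fold change 0.81, SE 0.04, adjusted p = 6.72e-09) and SKP2-2 1.12 times below it (-0.16, SE 0.04, adjusted p = 0.0072), and the siRNAs differed by -0.97 (SE 0.04, adjusted p = 1.04e-09). The other muscle-linked members, FBXO40 and FBXL22, were under the filter.

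FBXO11, which targets BCL6, had 59.4, 58.4 and 58.4 CPM in SKP2-2, 77.4, 73.3 and 73.2 CPM in SKP2-1, and 61.8, 67.3 and 69.7 CPM in NC. The values were -0.17 with SKP2-2 (adjusted p = 0.012) and 0.17 with SKP2-1 (adjusted p = 0.0141), the last of which did not pass without SKP2-1 replicate 1 (0.15). MSH6 covers 25.2% of its exon bases on the other strand and changed by -0.34 with SKP2-2 and -0.72 with SKP2-1. Reads that fell in several genes were set apart in the counting. Without the strand setting, it is not known how reads from the shared exons of FBXO11 and MSH6 were counted. In all, 31 of the 56 tested members share exon bases with another gene, and 13 share at least 10% of theirs.

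Several members did not pass the test in any comparison. The abundant FBXW2 averaged 163 ± 4.23 CPM in SKP2-2, 162 ± 3.77 CPM in SKP2-1 and 160.4 ± 11.2 CPM in NC (SD, n = 3 each). The less abundant FBXO42, FBXO9 and FBXO3 likewise did not pass. With GC content corrected for, FBXO3 passed as higher in SKP2-2 than in NC (0.19, adjusted p = 5.18e-04) and than in SKP2-1 (0.13, adjusted p = 0.0074). FBXO9 then passed as higher in SKP2-2 than in NC (0.15, adjusted p = 0.0489). FBXL17, FBXO33 and FBXW9 passed as higher and FBXO30 and FBXO38 as lower with SKP2-2, by at most 0.54 and 0.17 in size on the log2 scale, and each of these 5 calls was lost in 2 to 7 of the 9 fits that left out 1 library. Without SKP2-2 replicate 2 all 5 were lost, with values of 0.14 for FBXL17, 0.17 for FBXO33, 0.54 for FBXW9, -0.15 for FBXO30 and -0.13 for FBXO38. Between the siRNAs, FBXO33 passed as lower and FBXW9 as higher in SKP2-2 than in SKP2-1. Each of these calls was lost in 4 of 18 alternatives, of which 3 for FBXO33 and 4 for FBXW9 left out 1 library. The following calls held under all 18 alternatives. FBXL17 (0.26, adjusted p = 0.0032) and FBXO33 (0.34, adjusted p = 1.66e-04) rose with SKP2-1, and FBXO30 (-0.24, adjusted p = 0.00429) and FBXO38 (-0.24, adjusted p = 0.00126) were lower in SKP2-2 than in SKP2-1.

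The rest of the SCF machinery gave a mixed picture. Of 29 genes of the SCF core, its E2 enzymes and the NEDD8 pathway that activates cullins, 8 rose and 7 fell with SKP2-2 (27.6% and 24.1%, against 25.2% and 24.1% of all genes), and 4 rose and 9 fell with SKP2-1 (13.8% and 31%, against 25.0% and 20.5%). The count that rose with SKP2-1 was 8, with 9 that fell, without NC replicate 3, and 7, with 9 that fell, with scaling by library size only or with GC content corrected for. The scaffold CUL1 averaged 96.1 ± 1.68 CPM in SKP2-2, 81.4 ± 0.494 CPM in SKP2-1 and 91.7 ± 4.42 CPM in NC, and fell with SKP2-1 (log2 fold change -0.17, adjusted p = 0.00674). The adaptor SKP1 fell with SKP2-2 (-0.16, adjusted p = 0.016), and the RING subunit RBX1 rose with both, by 0.45 (adjusted p = 3.91e-04) for SKP2-2 and 0.41 (adjusted p = 9.76e-04) for SKP2-1. UBA3, the catalytic subunit of the NEDD8-activating enzyme, averaged 31.8 ± 1.96 CPM in SKP2-2, 105 ± 1.5 CPM in SKP2-1 and 103 ± 7.2 CPM in NC, and fell with SKP2-2 (-1.70, SE 0.06, adjusted p = 2.15e-10). CKS1B, the cofactor that SKP2 needs to bind its substrates, was 80.1 ± 4.63 CPM in SKP2-2, 59.8 ± 0.849 CPM in SKP2-1 and 110.5 ± 6.29 CPM in NC, and fell with both siRNAs (-0.46 for SKP2-2, adjusted p = 1.01e-05, and -0.89 for SKP2-1, adjusted p = 2.95e-08). CAND1, which exchanges F-box proteins on CUL1, fell with SKP2-1 (-0.43, adjusted p = 2.46e-05), and its value with SKP2-2 was -0.05 (adjusted p = 0.46). COPS3, a subunit of the COP9 signalosome that removes NEDD8, fell with SKP2-1 (-0.42, adjusted p = 1.23e-05), and GLMN, an inhibitor of RBX1, fell with SKP2-2 (-0.53, adjusted p = 1.25e-04).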

How the data were processed

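The 9 libraries came from MDA-MB-231 RNA purified on RNeasy columns and treated with DNase, per the labels' protocols. The authors deposited 1 file of whole-number counts by Ensembl identifier for each library, not normalized. Reads were processed with STAR, with HTSeq 0.6.1 and DESeq2 1.16.1, and with FastQC 0.11.2 and Trim Galore 0.4.1, per the submitters' processing notes. The settings, build, annotation and strand are not given in the sources used here. The closing lines for reads outside genes (5.34 to 5.92%) or in several genes (3.87 to 3.97%) stayed out of library sizes. These shares are of the gene counts plus both lines.

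Genes were matched by Ensembl identifier to symbols and to GENCODE 29 coordinates on GRCh38 (58275 found). FBXW10B was kept, and FBXL9P and FBXL21P were left out as pseudogenes. Tests were quasi-likelihood F tests in edgeR 4.0.16 (R 4.3.3), two-sided, over 16575 genes kept by filterByExpr (minimum count 10, minimum total 15), with TMM scaling, robust fits over all 9 libraries and group as the only term. P-values were Benjamini-Hochberg adjusted over all genes tested, with a threshold of 0.05. Levels are TMM-scaled CPM, and per kb they are divided by the union of GENCODE exons. The fits were tested on simulated data with the same spread in all groups and no link to GC content, unlike these libraries. The labels do not say that replicates are separate cultures, and p-values reflect only how these libraries vary, which may be technical.

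The members, their roles and the lists were chosen with earlier results of these data known. The values of 1 member are not reported here by name. Named by rule were 10 fixed members, the 12 with the largest change shared by both siRNAs, the 6 largest for each siRNA alone, all with opposite changes, and the 6 with the largest difference between the siRNAs. Genes named outside that rule, such as FBXW8, FBXO21, CUL1 and CCND1, were chosen after their values were seen. Alternatives tried were scaling by RLE or by library size only, no filter, 1 CPM in 3 libraries, DESeq2 1.42.0, fits of only the groups compared, the replicate number as a block, and leaving out each library. Leaving out NC replicate 1 with SKP2-2 replicate 3 and per-library GC offsets were added after seeing the data.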

Additional observations from a re-analysis of the deposited data

Results flagged for a closer look

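A gene was marked here where it passed the test against NC with both siRNAs in opposite directions and also passed the test between the siRNAs. FBXO32 and FBXO11 were such genes. FBXO32, the muscle wasting gene atrogin-1, differed by -0.97 on the log2 scale between SKP2-2 and SKP2-1, with changes against NC of -0.16 for SKP2-2 and 0.81 for SKP2-1. FBXO11 differed by -0.35, with changes of -0.17 for SKP2-2 and 0.17 for SKP2-1. The exons of FBXO11 overlap those of MSH6 on the other strand. The part of the overlapping reads in this difference was not tested.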

How the results depend on the processing

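The 30 F-box genes named by rule gave 90 fold changes over 3 comparisons. Of these, 72 kept their side of the threshold under every alternative that tested them, of up to 18. None of the fold changes that passed the test changed direction under an alternative, while 8 of the 72, none of which passed, changed sign under at least 1. The counts of members changed (34 for SKP2-2 against NC, 27 for SKP2-1 against NC and 32 between the siRNAs) stayed within 1.5 times under every alternative. Same-numbered replicates did not deviate together (correlations from -0.50 to 0.05). The spread that follows GC content enters these correlations, so they cannot exclude that the numbers pair the samples. With the replicate block the counts were 31, 25 and 31. The summed level of the 65 genes, scaled by library size only, was 1994 CPM in SKP2-1 and 1909 CPM in NC. With TMM scaling it was 2006 and 1932 CPM. The counts were the same, so only the scaling differed. The shift was larger than the SD between replicates with TMM scaling (11.1 CPM in SKP2-1 and 16.1 CPM in NC). With library size only, the SD was 8.51 CPM in SKP2-1 and 26.4 CPM in NC. Low counts limit FBXO2 and FBXW10, the spread that follows GC content limits high-GC members such as FBXW5, and the unknown strand setting limits FBXO11. With GC content corrected for, SKP2-2 against NC gained 8 members and lost 2.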

Other observations

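Values were also read out for 23 genes that encode known targets of F-box proteins. The values are RNA levels, whereas the ligases act on the proteins, which were not measured here. Of the 23, 5 rose and 13 fell with SKP2-2 (21.7% and 56.5%, against 25.2% and 24.1% of all genes tested), and 4 rose and 12 fell with SKP2-1 (17.4% and 52.2%, against 25.0% and 20.5%). In a fit of SKP2-2 and NC alone, 3 rose and 13 fell with SKP2-2. The median log2 fold change was -0.20 for SKP2-2 and -0.45 for SKP2-1, and E2F1 on this list is also among the cell cycle genes. The cyclin F targets RRM2 and CDC6 fell with both siRNAs. RRM2 averaged 87.3 ± 3.53 CPM in SKP2-2, 60.6 ± 1.21 CPM in SKP2-1 and 137 ± 13.8 CPM in NC (SD, n = 3 each), and CDC6 averaged 72.2 ± 3.35 CPM in SKP2-2, 59.5 ± 1.16 CPM in SKP2-1 and 145 ± 7.52 CPM in NC. The beta-TrCP target CDC25A was 51.7 ± 2.14 CPM in SKP2-2, 29.1 ± 1.35 CPM in SKP2-1 and 77.1 ± 2.8 CPM in NC.

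Other targets differed between the siRNAs. BCL2, a reported target of FBXO10, was 17.1 ± 0.335 CPM in SKP2-2, 7.86 ± 0.706 CPM in SKP2-1 and 22.7 ± 2.33 CPM in NC, and it was higher in SKP2-2 than in SKP2-1 by 1.12 on the log2 scale (adjusted p = 2.26e-07). Cyclin D1 (CCND1) rose with SKP2-2 (log2 fold change 0.55, adjusted p = 1.37e-06) and fell with SKP2-1 (-0.45, adjusted p = 1.02e-05). The FBXW7 target CCNE1 fell with both, by -1.49 (adjusted p = 8.19e-09) for SKP2-2 and -0.86 (adjusted p = 1.24e-06) for SKP2-1. SNAI1, the target of FBXL14, was scarce, at 0.363 ± 0.129 CPM in SKP2-2, 0.7 ± 0.15 CPM in SKP2-1 and 1.13 ± 0.321 CPM in NC, and fell with SKP2-2 (-1.63, SE 0.30, adjusted p = 5.51e-04). CCP110, a centriole protein targeted by cyclin F, fell with both siRNAs (-0.98, adjusted p = 3.48e-08, for SKP2-2 and -0.45, adjusted p = 5.02e-05, for SKP2-1). How the levels of the F-box genes bear on those of their targets was not tested.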
